A study of Mus musculus with 22 samples.

Results

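The comparison described here is the change that ABT-263 made in whole mouse lung, taken as the mean of its change in normoxia and its change in hypoxia with equal weight for each. All 22 libraries of the series entered it, assigned to groups by their sample titles. They came from 6 normoxia ABT-263, 5 normoxia vehicle, 5 hypoxia ABT-263 and 6 hypoxia vehicle lungs of young male C57BL6/j mice. ABT-263 was given at 50 mg/kg/day over 8 days, during which the animals were kept at the oxygen level named. The oxygen percentage in hypoxia and the make-up of the vehicle are not given in the sources used here. All groups share the strain and sex, and the labels name no transgene or deletion.

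ABT-263 (navitoclax) is a small molecule that occupies the groove by which BCL-2, BCL-XL and BCL-W hold pro-apoptotic partner proteins, and cells that depend on these guardians then undergo apoptosis. It is used as a senolytic, since many senescent cells lean on BCL-XL. B and T lymphocytes are known for their need of BCL-2, and circulating platelets for their need of BCL-XL, so that loss of lymphocytes and platelets is a known effect of the drug in patients and in mice.

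Each library held between 11509032 and 15744212 counts, and 16638 of 54532 genes had enough of them to be tested. Lung markers were high in every library: the surfactant gene Sftpc lay between 22555 and 32951 CPM (counts scaled to the TMM-adjusted size of the library), the club cell gene Scgb1a1 between 35182 and 92223 CPM and the alveolar type 1 cell gene Ager between 1506 and 2552 CPM. The treatment tag contradicts the title in 3 libraries, which are the first replicates of every group except normoxia vehicle. Counts are therefore also given without these 3 libraries, and with treatment read from the tag no gene passed with edgeR in the average, while 1916 genes had an unadjusted p under 0.05. Nothing in the labels says that each library came from a separate animal, so p-values measure the spread between these samples. The labels name no batches.

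ABT-263 changed 423 genes when both oxygen levels were averaged, 205 higher and 218 lower, by edgeR's quasi-likelihood F test at a Benjamini-Hochberg adjusted p under 0.05. This is 2.54% of the genes tested, 1.23% higher and 1.31% lower, against which the counts of each gene group below are to be read. The median log2 fold change over all genes tested was 0.00, and the median standard error (SE) 0.08. Large estimated changes were more common among rises: 7 of the 218 lower genes and 50 of the 205 higher genes moved by at least 2-fold. When a change over 1.2-fold was required by the test itself, 1 higher and 25 lower genes passed. The median log2 fold change was -0.51 among the 218 genes that fell and 0.46 among the 205 that rose. Of the genes that fell, 55 stood on lists of lymphocyte genes, and of those that rose, 26 stood on lists of cell cycle genes, whereas 157 and 161 stood on none of the 46 lists. Protein-coding genes made up 204 of the higher and 184 of the lower genes. Averaging raised the number of calls, since 146 of the lower and 180 of the higher genes passed in neither oxygen level alone. Without the 3 libraries with conflicting labels 285 genes passed, 121 higher and 164 lower, of which 218 were among the 423.

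**Figure D1:**
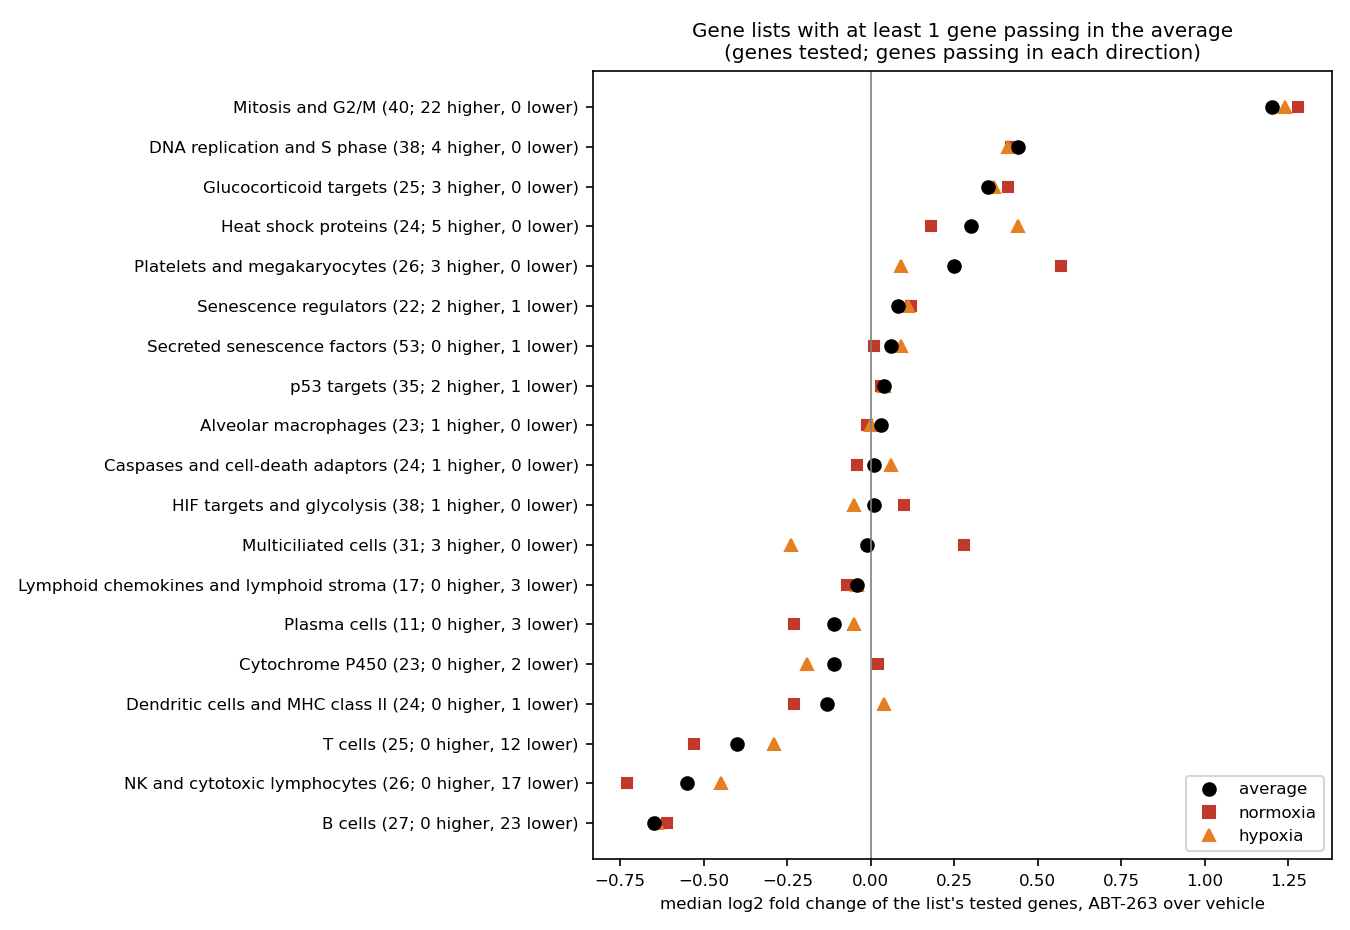
Median log2 fold change (horizontal axis, ABT-263 over vehicle) of the tested genes of each gene list that had at least 1 gene passing in the average; circles give the average, squares normoxia and triangles hypoxia. The B cell, NK cell and T cell lists lie lowest, at -0.65, -0.55 and -0.40 in the average, and the mitosis list lies highest, at 1.2.

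B cell transcripts fell with ABT-263 at both oxygen levels. Of 27 B cell genes tested 23 fell and none rose, the list's median log2 fold change was -0.65, and all 27 lay below 0 in normoxia and in hypoxia. Taken alone, 15 passed in normoxia and 11 in hypoxia. Ighd, the heavy chain of the IgD receptor on mature naive B cells (ENSMUSG00000104213; GRCm38 chromosome 12, 113406604 to 113416324), had 50, 57.9 and 62.5 CPM as the lowest, median and highest of 6 normoxia ABT-263 lungs, against 95.9, 77.1, 119, 127 and 90.9 CPM in the 5 normoxia vehicle lungs. It had 32, 22.2, 23.9, 23 and 20.8 CPM in the 5 hypoxia ABT-263 lungs, against 45.5, 50.8 and 66.9 CPM as the lowest, median and highest of 6 hypoxia vehicle lungs. At each oxygen level every ABT-263 lung lay below every vehicle lung, and Ighd fell by 0.99 ± 0.09 (SE) on the log2 scale, with the smallest adjusted p of the B cell list (edgeR, 8.66e-07). In bulk tissue fewer cells of a type and less RNA per cell cannot be told apart.

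Cd22, an inhibitory co-receptor of B cells (chromosome 7, 30865402 to 30880342), had 17.1, 18 and 24.3 CPM as the lowest, median and highest in normoxia ABT-263 lungs, against 27.9, 26.9, 37.5, 39.5 and 26.4 CPM in normoxia vehicle lungs. With hypoxia the values were 14, 10.2, 12.3, 9.19 and 10.5 CPM with ABT-263, against 15.9, 18.8 and 26.7 CPM as the lowest, median and highest with vehicle. The groups again did not overlap at either oxygen level, and the log2 fold change was -0.77 ± 0.10 (adjusted p = 0.000162). The B cell receptor component Cd79a (chromosome 7, 24897381 to 24902197) averaged 37.7 ± 4.14 CPM in normoxia ABT-263 lungs and 57.2 ± 12.4 CPM in normoxia vehicle lungs (SD, n = 6 and 5), and 14.6 ± 1.24 CPM in hypoxia ABT-263 lungs and 25.5 ± 4.07 CPM in hypoxia vehicle lungs (SD, n = 5 and 6). Its groups met in normoxia, where the highest ABT-263 lung at 44 CPM lay above the lowest vehicle lung at 43.5 CPM, and not in hypoxia. In all, 7 of the 27 B cell genes had no overlap at both oxygen levels, against 19 of all 16638 genes (0.114%) that were lower without overlap at both.

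The other B cell genes that fell included the low-affinity IgE receptor Fcer2a (-0.78 ± 0.11), the Fc receptor-like protein Fcrl1 (-0.77 ± 0.12), the IgM receptor Fcmr (-0.72 ± 0.10), the complement receptor Cr2 (-0.71 ± 0.12), the BAFF receptor Tnfrsf13c (-0.69 ± 0.11) and the transcription factor Pax5 (-0.69 ± 0.14). The IgM heavy chain Ighm fell less (-0.41 ± 0.09, adjusted p = 0.0127). The 4 genes of the list that did not pass were Ralgps2 (-0.15 ± 0.06), Ebf1 (-0.21 ± 0.09), Pou2af1 (-0.26 ± 0.09) and Vpreb3 (-0.34 ± 0.14). Igkc, the constant region of the kappa light chain, is shared by naive B cells and plasma cells and fell as well (-0.58 ± 0.08); it was chosen after its values were seen. Of 9 immunoglobulin constant genes tested 5 fell, and of 27 variable segments 1 did, Igkv10-96 (-1.09 ± 0.20), also named after its values were seen. The median log2 fold change was -0.46 for the constant genes and -0.49 for the variable segments. Reads of these segments are shared among near-identical copies, so single values are uncertain.

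Among 11 plasma cell genes 3 fell and none rose, with a median of -0.11. They were Tnfrsf13b, a receptor of BAFF and APRIL also found on B cells (-0.39 ± 0.08), Mzb1, a chaperone of immunoglobulin assembly (-0.48 ± 0.11), and the transcription factor Irf4, also active in T cells and B cells (-0.42 ± 0.10). Jchain, the joining chain of secreted IgM and IgA, stood at 0.13 ± 0.24 and did not pass. The chemokine receptor Cxcr5, which brings B cells into follicles, had 9.35, 10.3 and 11.5 CPM as the lowest, median and highest in normoxia ABT-263 lungs, against 14, 15.1, 14.8, 21.6 and 15 CPM in normoxia vehicle lungs, and 5.26, 4.69, 5.4, 4.46 and 6.28 CPM in hypoxia ABT-263 lungs, against 7.05, 8.19 and 10.5 CPM in hypoxia vehicle lungs. No ABT-263 lung reached a vehicle lung of the same oxygen level (-0.66 ± 0.09, adjusted p = 0.000233). Cxcr5 was with Ltb, a lymphotoxin subunit made by lymphocytes (-0.56 ± 0.08), and Ccr7, a homing receptor of naive T cells and dendritic cells (-0.44 ± 0.08), 1 of 3 genes that fell among 17 on a list of lymphoid chemokines and stroma. The follicle chemokine Cxcl13, made by stroma, stood at 0.29 ± 0.20 and did not pass.

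T cell transcripts fell in part. Of 25 T cell genes 12 fell and none rose, with a median of -0.40, and 23 lay below 0 at both oxygen levels. Taken alone, 7 passed in normoxia and none in hypoxia. Trbc2, a constant segment of the T cell receptor beta chain (chromosome 6, 41546730 to 41548352), had 10.8, 12.5 and 17.3 CPM as the lowest, median and highest in normoxia ABT-263 lungs, against 26.7, 16.6, 18.4, 27.2 and 23.3 CPM in normoxia vehicle lungs. Under hypoxia it had 12.2, 9.04, 13.8, 8.63 and 11.1 CPM with ABT-263, against 12.5, 13.8 and 17.4 CPM with vehicle. Single lungs overlapped at both oxygen levels (-0.56 ± 0.10, adjusted p = 0.00359), and its neighbour Trbc1, a close copy, fell by 0.73 ± 0.13. Cd5, a co-receptor of T cells and some B cells (chromosome 19, 10717116 to 10739002), had 1.79, 2.08 and 2.47 CPM in normoxia ABT-263 lungs, against 3.43, 3.67, 3.64, 4.48 and 4.77 CPM in normoxia vehicle lungs, with no overlap, and 1.8, 1.91, 2.13, 1.84 and 1.4 CPM in hypoxia ABT-263 lungs, against 1.88, 2.3 and 3.32 CPM in hypoxia vehicle lungs, with overlap (-0.66 ± 0.12, adjusted p = 0.00348).

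Both chains of the CD8 co-receptor of cytotoxic T cells fell, Cd8a by 0.68 ± 0.15 and Cd8b1 by 0.60 ± 0.12. The kinase Lck fell by 0.43 ± 0.09 and the receptor subunit Cd3e by 0.52 ± 0.13. The helper cell co-receptor Cd4, which macrophages and dendritic cells can carry too, did not pass (-0.11 ± 0.13), nor did Foxp3, the factor of regulatory T cells (-0.24 ± 0.20), or the interleukin-7 receptor chain Il7r (-0.23 ± 0.10). The differences between these genes were not tested. None of the T cell genes was without overlap at both oxygen levels.

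Of 26 genes of NK and cytotoxic lymphocytes 17 fell and none rose, with a median of -0.55, and 25 lay below 0 at both oxygen levels. Taken alone, 6 passed in normoxia and 1 in hypoxia. Txk, a kinase of T and NK cells (ENSMUSG00000054892; chromosome 5, 72695978 to 72752777), had 2.8, 3.35 and 3.45 CPM as the lowest, median and highest in normoxia ABT-263 lungs, against 4.11, 4.5, 6.21, 8.5 and 5.24 CPM in normoxia vehicle lungs. In hypoxia it had 2.02, 2.52, 2.7, 1.41 and 1.49 CPM with ABT-263, against 3.12, 4.21 and 4.42 CPM with vehicle. No lung crossed between treatments at either oxygen level (-0.89 ± 0.13, adjusted p = 0.000511). The receptor Klra8 had 3.18, 3.62 and 4.45 CPM in normoxia ABT-263 lungs, against 5.34, 5.62, 7.14, 9.18 and 8.02 CPM in normoxia vehicle lungs, and 3.61, 3.13, 3.6, 1.06 and 3.3 CPM in hypoxia ABT-263 lungs, against 4.09, 5.44 and 7.44 CPM in hypoxia vehicle lungs (-0.89 ± 0.15, adjusted p = 0.00213).

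Klra8 and Klra9 (-1.09 ± 0.19) belong to a family of close copies of NK cell receptors on chromosome 6, between which reads can be divided. The NK cell receptors Klrb1c (-0.67 ± 0.11) and Ncr1 (-0.71 ± 0.19) and the interleukin-2 receptor chain Il2rb (-0.47 ± 0.11) fell too. Of the killing machinery, the protease genes Ctsw (-0.88 ± 0.15) and Gzma (-0.68 ± 0.17), the pore-forming protein Prf1 (-0.55 ± 0.13) and the granule protein Nkg7 (-0.55 ± 0.13) fell, whereas Gzmb did not pass (-0.51 ± 0.15, adjusted p = 0.0732). The chemokine Ccl5, made by cytotoxic cells and also counted among the secreted factors of senescence, fell by 0.40 ± 0.10.

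**Figure D2:**
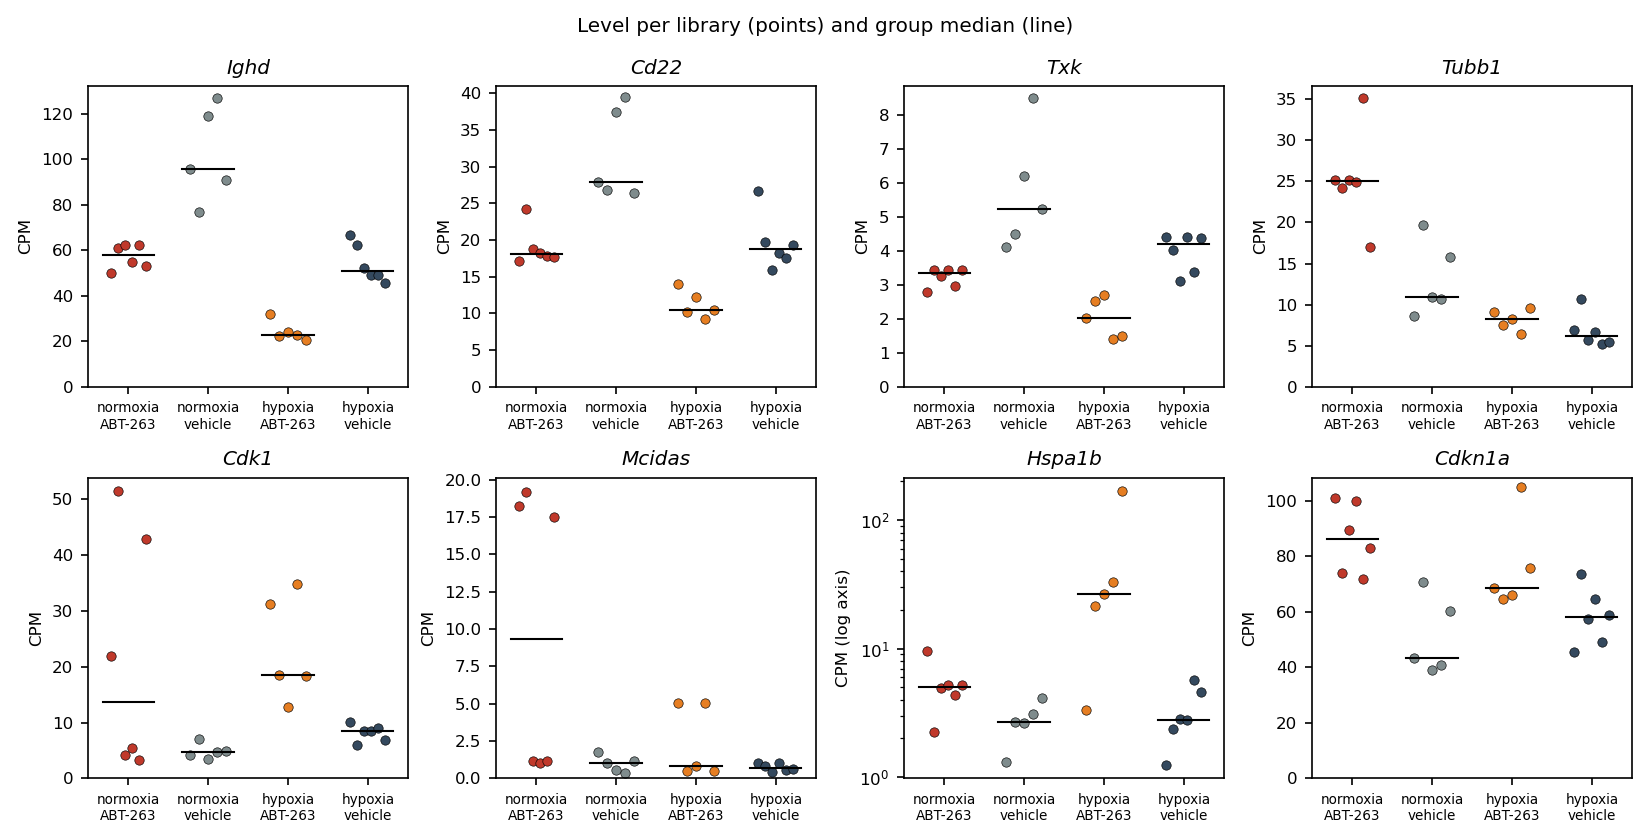
CPM (vertical axis; logarithmic for Hspa1b, from 0 for the other 7 genes) in each library of the 4 groups, with a line at the group median. Ighd, Cd22 and Txk lie lower in every ABT-263 lung than in any vehicle lung of the same oxygen level, Mcidas is above 5 CPM in 5 ABT-263 lungs alone, and Hspa1b reaches 168 CPM in 1 hypoxia ABT-263 lung.

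The mean log2 CPM of a list in each lung shows how general these falls were. For the B cell list it ran from 4.14 to 4.43 in normoxia ABT-263 lungs, against 4.52 to 5.19 in normoxia vehicle lungs, and from 3.32 to 3.57 in hypoxia ABT-263 lungs, against 3.91 to 4.25 in hypoxia vehicle lungs. The T cell list ran from 2.29 to 2.71 in normoxia ABT-263 lungs, against 2.84 to 3.34 in normoxia vehicle lungs, without overlap, and from 1.99 to 2.49 in hypoxia ABT-263 lungs, against 2.37 to 2.58 in hypoxia vehicle lungs, with overlap. The NK list ran between 1.72 and 2.29 in normoxia ABT-263 lungs, against 2.34 and 2.91 in normoxia vehicle lungs, without overlap, and between 0.90 and 1.69 in hypoxia ABT-263 lungs, against 1.60 and 2.21 in hypoxia vehicle lungs, with overlap. Hypoxia ABT-263 replicate 4, at 0.90, was the lowest of all lungs for the NK list.

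The share of counts in haemoglobin genes was 0.343% to 0.698% in normoxia ABT-263 lungs, against 0.403% to 0.563% in normoxia vehicle lungs. In hypoxia it was 0.880% to 1.44% with ABT-263, against 0.925% to 1.29% with vehicle. It thus overlapped between treatments. The amount of blood in each lung was not measured. Among other leukocytes, none of 19 neutrophil genes passed (median -0.07). Their log2 fold changes ran from -0.63 to 0.73, with 12 below 0 and 7 above. None of 26 genes of monocytes and interstitial macrophages passed (median 0.01). The same held for 9 genes of mast cells, basophils and eosinophils (median -0.16). Of 24 genes of dendritic cells and MHC class II 1 fell, H2-DMb2 (-0.53 ± 0.08), which encodes a peptide-loading chain and is also expressed by B cells. The invariant chain Cd74 stood at -0.12 ± 0.11. Of 23 alveolar macrophage genes 1 rose, the scavenger receptor Marco (0.61 ± 0.14). Without the 3 libraries with conflicting labels 22 of 27 B cell, 8 of 25 T cell and 8 of 26 NK genes fell, with medians of -0.62, -0.38 and -0.53. With treatment read from the tag none of the 27 B cell genes passed, and their median was -0.41. For the B cell list the first normoxia ABT-263 lung had a mean of 4.14, below all normoxia vehicle lungs. The first hypoxia ABT-263 lung, at 3.57, lay below all hypoxia vehicle lungs, and the first hypoxia vehicle lung, at 4.25, above all hypoxia ABT-263 lungs, with groups taken by title. With hypoxia ABT-263 replicate 4 left out 8 NK genes passed, with a median of -0.50, and between 9 and 11 did without normoxia vehicle replicate 4 or 5, hypoxia vehicle replicate 1, 2 or 6, or hypoxia ABT-263 replicate 5. Without the 5 lungs in which Mcidas was above 5 CPM 20 B cell, 5 T cell and 9 NK genes fell, with medians of -0.67, -0.40 and -0.63.

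Outside the lists, the largest falls that the naming rule took were those of Cacna1i, a T-type calcium channel subunit (-0.86 ± 0.14), Clec2i, a C-type lectin that is bound by NK cell receptors (-0.79 ± 0.14), H2-Eb2, an MHC class II beta chain (-0.78 ± 0.14), the fatty acid receptor Ffar1 (-0.83 ± 0.20) and the zinc finger gene Zfp831 (-0.74 ± 0.18). Cacna1i had 2.06, 2.91 and 3.36 CPM as the lowest, median and highest in normoxia ABT-263 lungs, against 3.43, 3.75, 5.86, 5.84 and 3.38 CPM in normoxia vehicle lungs. Under hypoxia the values were 1.73, 1.04, 1.47, 1.27 and 1.57 CPM with ABT-263, against 2.32, 2.83 and 3.57 CPM with vehicle, and the groups met at neither oxygen level.

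**Figure D3:**
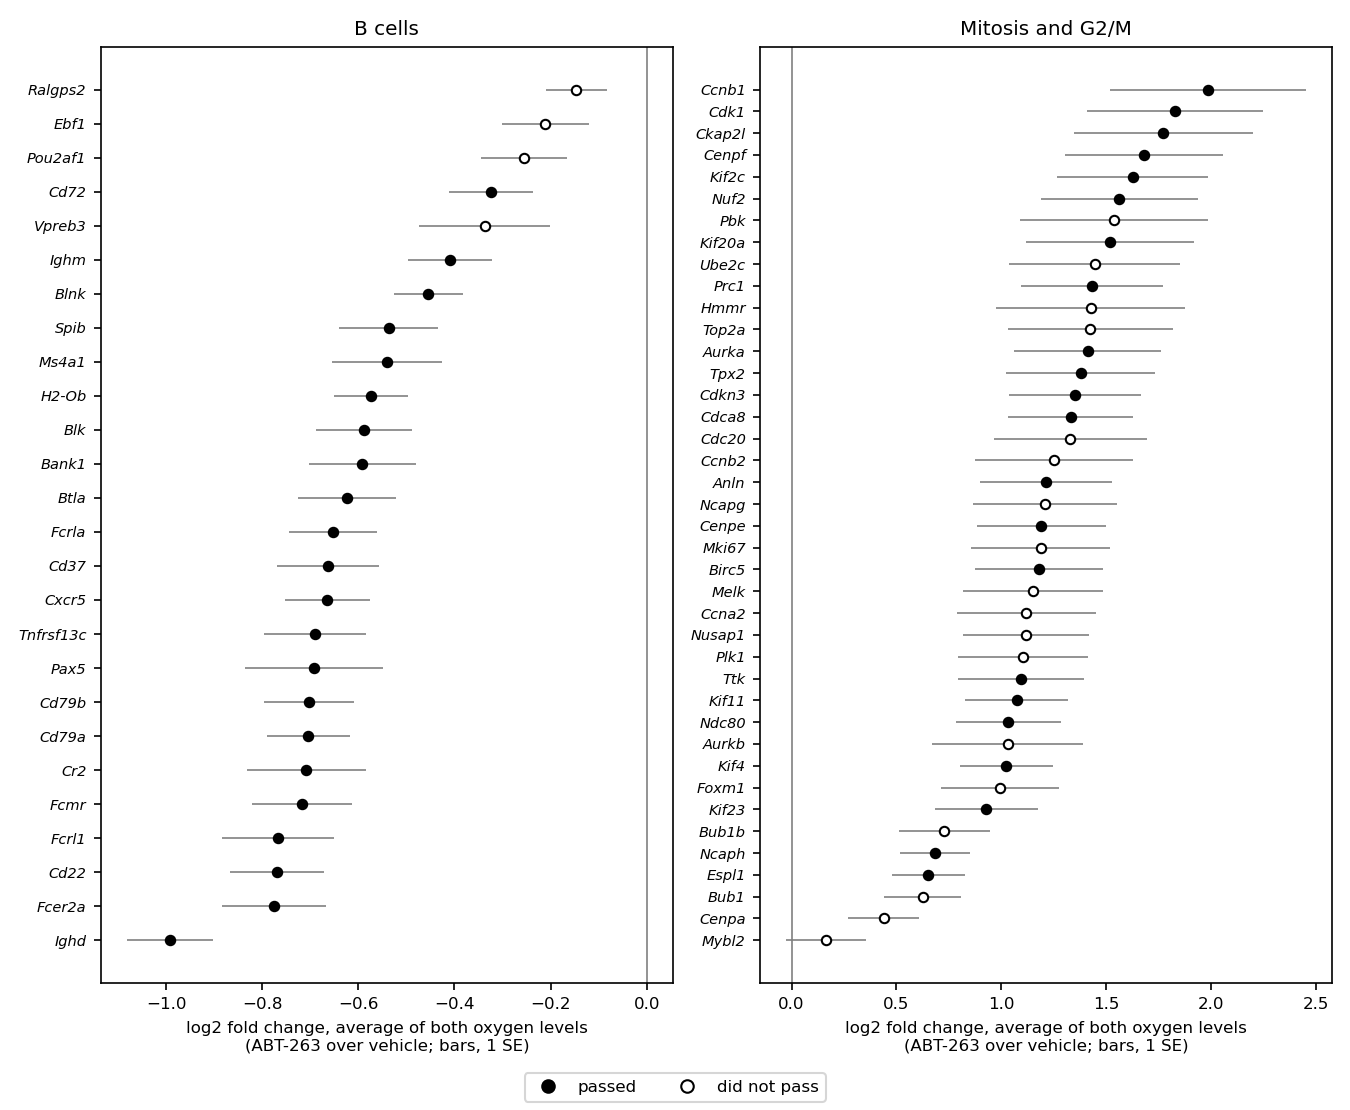
Log2 fold change in the average of both oxygen levels (horizontal axis, ABT-263 over vehicle; bars, 1 SE) of 26 of the 27 tested genes of the B cell list (left) and all 40 of the mitosis list (right), with filled points for genes that passed. The B cell genes shown all lie below 0 and the 40 mitosis genes all above it, with wider bars for the mitosis genes.

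Genes of mitosis rose, and far more unevenly between lungs. Progress through mitosis is driven by CDK1 with its cyclin partners, and the genes of this phase are transcribed together late in the cell cycle, through promoter elements read by the DREAM and B-MYB-FOXM1 complexes. One such element is the cell cycle genes homology region (CHR), here searched as TTTGAA, which is often found near CCAAT boxes. Of 40 genes of mitosis and G2/M 22 rose and none fell, with a median log2 fold change of 1.2, and 39 lay above 0 at both oxygen levels. The promoters of Cdk1, the kinase (chr10:69352863-69353162, minus strand), of Cdca8, a subunit of the chromosomal passenger complex (chr4:124936868-124937167, minus strand), of Kif4, a chromosome-bound kinesin (chrX:100625815-100626114, plus strand), and of Ccnb1, cyclin B1 (chr13:100786437-100786736, minus strand), are printed because these genes are among the rises described below and differ in the elements they hold. They are RefSeq sequences on GRCm38.p6, 250 bases before to 50 after the annotated start, 5′ to 3′ along the gene, and the capitals mark TTTGAA and CCAAT on either strand (the reverse of CCAAT is ATTGG), which may overlap each other.
Cdk1: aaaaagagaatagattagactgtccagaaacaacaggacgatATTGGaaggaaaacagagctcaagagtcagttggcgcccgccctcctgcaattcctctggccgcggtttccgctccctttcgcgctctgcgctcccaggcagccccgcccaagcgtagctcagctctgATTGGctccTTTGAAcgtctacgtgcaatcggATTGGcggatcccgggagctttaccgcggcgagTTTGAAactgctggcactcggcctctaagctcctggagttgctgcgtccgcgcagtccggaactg
Cdca8: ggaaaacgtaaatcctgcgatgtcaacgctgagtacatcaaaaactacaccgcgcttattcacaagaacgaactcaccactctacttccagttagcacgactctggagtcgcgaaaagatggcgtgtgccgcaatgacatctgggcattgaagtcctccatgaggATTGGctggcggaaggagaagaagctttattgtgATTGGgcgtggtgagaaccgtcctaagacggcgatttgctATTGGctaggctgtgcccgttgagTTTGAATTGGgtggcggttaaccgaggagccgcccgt
Kif4: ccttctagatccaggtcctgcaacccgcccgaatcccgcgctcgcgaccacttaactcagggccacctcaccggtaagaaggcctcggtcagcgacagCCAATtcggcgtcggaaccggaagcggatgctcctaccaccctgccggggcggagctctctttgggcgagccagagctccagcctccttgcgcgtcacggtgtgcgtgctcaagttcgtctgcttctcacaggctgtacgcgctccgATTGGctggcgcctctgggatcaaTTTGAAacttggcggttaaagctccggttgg
Ccnb1: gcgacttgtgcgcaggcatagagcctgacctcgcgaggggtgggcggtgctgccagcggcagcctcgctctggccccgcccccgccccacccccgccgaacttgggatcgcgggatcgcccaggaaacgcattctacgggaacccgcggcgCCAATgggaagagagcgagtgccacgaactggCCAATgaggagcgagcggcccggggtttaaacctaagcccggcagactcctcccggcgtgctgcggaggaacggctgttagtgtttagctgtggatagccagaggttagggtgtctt

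The letters TTTGAA, on either strand, were in 25 of 34 promoters of the mitosis list (73.5%), in 4 of 31 of the list of DNA replication and S phase (12.9%) and in 18.1% of the 27025 genes with a promoter in the table. CCAAT was in 25 of 34 (73.5%) and 18 of 31 (58.1%) promoters of these lists, and in 37.9% of all. Of those printed, Cdk1 has 2 matches to TTTGAA, Cdca8 and Kif4 have 1 each and Ccnb1 has none, and CCAAT matches number 3, 4, 2 and 2 in this order. A match describes these letters only. Whether a factor was bound was not measured.

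Cdk1 (ENSMUSG00000019942; chromosome 10, 69335146 to 69352938) had 3.37, 13.7 and 51.5 CPM as the lowest, median and highest in normoxia ABT-263 lungs, against 4.11, 7.04, 3.43, 4.71 and 4.97 CPM in normoxia vehicle lungs. The hypoxia lungs had 31.2, 18.6, 12.7, 34.9 and 18.3 CPM with ABT-263, against 5.94, 8.48 and 10.1 CPM with vehicle. All 5 hypoxia ABT-263 lungs lay above all hypoxia vehicle lungs, while in normoxia only replicates 1, 2 and 6, at 21.9, 51.5 and 42.8 CPM, lay above their vehicle lungs, and the other 3 were at 3.37 to 5.52 CPM (log2 fold change 1.83 ± 0.42, adjusted p = 0.0296). Cdca8 showed the same division, with 1.79, 3.63 and 10.6 CPM in normoxia ABT-263 lungs, against 1.71, 2.1, 1.71, 2.2 and 2.32 CPM in normoxia vehicle lungs, and 6.42, 3.82, 2.78, 9.76 and 4.62 CPM in hypoxia ABT-263 lungs, against 1.98, 2.15 and 2.51 CPM in hypoxia vehicle lungs (1.33 ± 0.30, adjusted p = 0.0231).

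Ccnb1 rose by 1.99 ± 0.47 on the log2 scale, Kif11, the motor that separates the spindle poles, by 1.07 ± 0.25, and Kif4 by 1.02 ± 0.22. Rises of the same kind were those of the kinetochore proteins Nuf2 (1.56 ± 0.37), Cenpf (1.68 ± 0.38) and Knl1 (1.60 ± 0.40), the microtubule depolymerase Kif2c (1.63 ± 0.36), the spindle protein Ckap2l (1.77 ± 0.43), and Cep55 (1.66 ± 0.40) and Ect2 (1.62 ± 0.39), which act in the final separation of daughter cells. Mki67, the antigen Ki-67, had 6.66, 12.1 and 47.4 CPM in normoxia ABT-263 lungs, against 7.06, 15.7, 8.14, 10.2 and 10.1 CPM in normoxia vehicle lungs, and 41.6, 28.5, 19.1, 45.1 and 33.6 CPM in hypoxia ABT-263 lungs, against 9.37, 13.8 and 18 CPM in hypoxia vehicle lungs. It did not pass (1.19 ± 0.33, adjusted p = 0.0653), nor did Top2a (1.42 ± 0.39, adjusted p = 0.0620), the transcription factor Foxm1 (0.99 ± 0.28, adjusted p = 0.0649) or Mybl2, the gene of B-MYB (0.16 ± 0.19).

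Fewer genes of DNA replication passed. Of 38 genes 4 rose and none fell, with a median of 0.44, and 36 lay above 0 at both oxygen levels. None passed in normoxia alone or in hypoxia alone. The 4 were the DNA polymerase alpha subunit Pola1 (0.43 ± 0.10), the helicase factor Cdc45 (0.80 ± 0.19), the thymidylate synthase Tyms (0.49 ± 0.13) and the ribonucleotide reductase subunit Rrm1 (0.45 ± 0.12). The sliding clamp Pcna stood at 0.31 ± 0.10 and the helicase subunit Mcm5 at 0.75 ± 0.24, and neither passed. With the 3 conflicting libraries left out 1 passed; leaving out single libraries gave 0 (hypoxia ABT-263 replicate 4) to 7 (normoxia ABT-263 replicate 4 or 5). Without the 3 lungs with the highest mitosis means none passed and the median was 0.15, and without the 5 lungs with Mcidas above 5 CPM none passed and it was 0.10.

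The mean log2 CPM of the mitosis list was 2.65, 3.90, 1.40, 1.45, 1.38 and 3.89 in normoxia ABT-263 replicates 1 to 6, against 1.40 to 2 in normoxia vehicle lungs. It was 3.38, 3.01, 2.58, 3.83 and 3.09 in hypoxia ABT-263 replicates 1 to 5, against 1.80 to 2.36 in hypoxia vehicle lungs. In hypoxia all ABT-263 lungs were thus above all vehicle lungs, and in normoxia 3 of 6 were. No gene of the mitosis list passed in normoxia alone or in hypoxia alone. Leaving out single lungs changed the count of 22 mitosis genes. Without hypoxia ABT-263 replicate 4 it was 1 (median 1.09), with 41 higher genes in all, against 205 from all libraries. Without normoxia vehicle replicate 3 it was also 1 (median 1.17), with 45 higher genes in all. It was 4 to 7 without normoxia vehicle replicate 1, 4 or 5, normoxia ABT-263 replicate 6, hypoxia vehicle replicate 2 or 6, or hypoxia ABT-263 replicate 5, and 9 to 13 without normoxia vehicle replicate 2, normoxia ABT-263 replicate 1 or 2, or hypoxia vehicle replicate 1, 3, 4 or 5. Leaving out normoxia ABT-263 replicate 3, 4 or 5 gave 35, 35 and 36 genes. The count was 3 without the 3 libraries with conflicting labels (median 1.24), 2 with limma-voom and 37 with DESeq2. With the 3 lungs of the highest mitosis means left out, a choice made after seeing the data and by this very measure, 1 gene passed and the median was 0.55. Without the 5 lungs with Mcidas above 5 CPM, likewise chosen after seeing the data, none of the 40 passed and the median was 0.25.

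**Figure D4:**
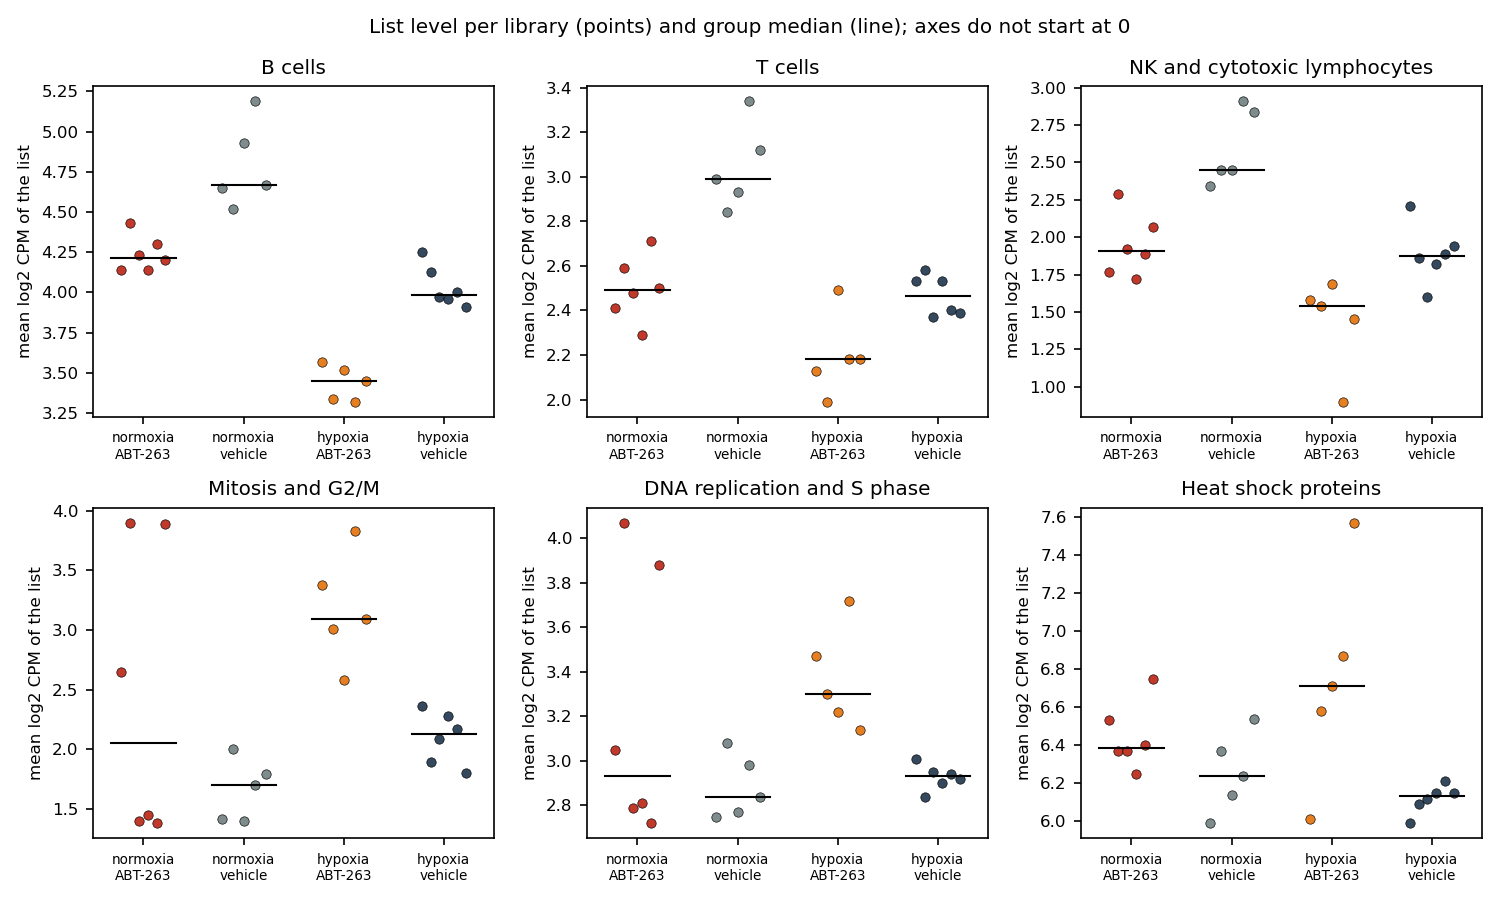
Mean log2 CPM of the tested genes of 6 lists (vertical axes, which do not start at 0) in each library of the 4 groups, with a line at the group median. ABT-263 lungs lie below vehicle lungs for the B cell list at both oxygen levels, while the mitosis list is divided among the normoxia ABT-263 lungs, between 1.38 and 3.90.

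A small set of genes that opens the multiciliated cell programme was also uneven between lungs. Multiciliated airway cells build their many cilia after the coiled-coil regulator MCIDAS, with GEMC1 (Gmnc), switches on genes for mass production of centrioles, and FOXJ1 then switches on genes of the axoneme. Of 31 multiciliated cell genes 3 rose and none fell, and the median was -0.01 (0.28 in normoxia and -0.24 in hypoxia). Mcidas (ENSMUSG00000074651; chromosome 13, 112993845 to 113000394, plus strand) had 18.2, 19.2, 1.15, 1.04, 1.15 and 17.5 CPM in normoxia ABT-263 replicates 1 to 6, against 1.78, 1.05, 0.571, 0.379 and 1.13 CPM in normoxia vehicle lungs. Among hypoxia lungs it was at 5.05, 0.521, 0.818, 5.02 and 0.495 CPM in the ABT-263 group, against 0.435, 0.710 and 1.03 CPM as the lowest, median and highest of the vehicle group, the ABT-263 values in replicate order. Above 5 CPM were 5 lungs, all labelled ABT-263 by their titles, and all other lungs were at or below 1.78 CPM. Of the 5, normoxia replicate 1 and hypoxia replicate 1 carry a treatment tag that names vehicle. The log2 fold change was 2.50 ± 0.64 (adjusted p = 0.0454).

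Ccno, a cyclin-like gene needed for centriole amplification, ends 3068 bases before Mcidas on the same strand (112987802 to 112990777) and had 49.2, 51.2, 5.97, 5.59, 6.17 and 46.9 CPM in normoxia ABT-263 replicates 1 to 6, against 7.06, 4.27, 4, 3.95 and 5.9 CPM in normoxia vehicle lungs. Its hypoxia values were 15.3, 4.35, 2.86, 24.5 and 3.55 CPM in the ABT-263 group, in replicate order, against 2.46, 4 and 5.74 CPM as the lowest, median and highest with vehicle. The same 5 lungs were high (1.90 ± 0.49, adjusted p = 0.0468). Foxn4, a transcription factor of multiciliated cells on chromosome 5, was at 14.1, 16.1 and 9.03 CPM in normoxia replicates 1, 2 and 6 and at 3.75 and 6.29 CPM in hypoxia replicates 1 and 4, and was at or below 1.81 CPM in every other lung (2.02 ± 0.51, adjusted p = 0.0421). The centriole duplication genes Plk4 (1.21 ± 0.32) and Stil (1.94 ± 0.51), which act in dividing cells as well, also rose.

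Cdc20b, whose gene lies 34717 bases beyond Mcidas and hosts the miR-449 family, stood at 2.49 ± 0.72 (adjusted p = 0.0739), and the centriole amplification gene Deup1 at 1.54 ± 0.42 (adjusted p = 0.0600); neither passed. Of other tested genes nearby, the glutathione peroxidase gene Gpx8, which lies within the span of Cdc20b, stood at -0.04 ± 0.07 and the helicase gene Dhx29 at 0.14, and neither passed, while the cytotoxic cell protease Gzma, 93431 bases beyond Mcidas, fell, as given with the NK list (-0.68 ± 0.17). The later genes were not raised to a call: Foxj1 stood at 0.37 ± 0.12 (adjusted p = 0.100) and the axonemal dynein Dnah5 at 0.02 ± 0.15. In normoxia Foxj1 had 229 to 351 CPM with ABT-263, against 140 to 220 CPM with vehicle, without overlap. In hypoxia it had 134 to 221 CPM, against 100 to 221 CPM. The mean log2 CPM of the whole list was likewise apart in normoxia (4.96 to 5.63, against 4.61 to 4.90). It overlapped in hypoxia (4.51 to 5.06, against 4.48 to 5.11). Dnah5 was at 76.9, 46 and 44.9 CPM in normoxia replicates 1, 2 and 6, where Mcidas was high, and at 85.9, 73.2 and 92.3 CPM in replicates 3, 4 and 5. Foxn4, Cdc20b, Deup1, Foxj1, Dnah5 and Gpx8 were singled out after their values were seen. Of the 5 lungs with high Mcidas, 4 had the 4 highest mitosis means and normoxia replicate 1 had 2.65, whereas in the other 3 hypoxia ABT-263 lungs the mitosis mean was above all vehicle lungs and Mcidas was not. Without the 3 libraries with conflicting labels Mcidas stood at 2.18 and did not pass (adjusted p = 0.125), and none of 30 genes of the list did. With 1 library left out none of the 31 passed in 17 of 22 cases, 1 or 3 did without hypoxia ABT-263 replicate 2 or 3, and 5 did without normoxia ABT-263 replicate 3, 4 or 5.

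A few heat shock transcripts rose. Of 24 heat shock genes 5 rose and none fell, with a median of 0.30, and 20 lay above 0 at both oxygen levels. Hspa1b, an inducible HSP70 chaperone (ENSMUSG00000090877; chromosome 17, 34956436 to 34959238), had 2.24, 5.07 and 9.59 CPM as the lowest, median and highest in normoxia ABT-263 lungs, against 1.3, 2.7, 2.64, 3.11 and 4.11 CPM in normoxia vehicle lungs. In hypoxia it had 3.32, 21.3, 26.8, 33.2 and 168 CPM with ABT-263, against 1.25, 2.80 and 5.74 CPM with vehicle. Of the 5 hypoxia ABT-263 lungs, 4 lay above every vehicle lung, and replicate 1, whose tag names vehicle, lay among them (2.45 ± 0.52, adjusted p = 0.0191). Its near-identical copy Hspa1a, with which reads are divided, rose by 2.31 ± 0.52. The list's mean log2 CPM was 6.01 in that replicate and 6.58 to 7.57 in the other hypoxia ABT-263 lungs, against 5.99 to 6.21 in hypoxia vehicle lungs. Replicate 1 thus lay with the treatment of its tag for this list, and with that of its title for the B cell list. Its T cell mean of 2.13 was also outside the hypoxia vehicle lungs (2.37 to 2.58), as was its mitosis mean of 3.38 (1.80 to 2.36). Its NK mean of 1.58 lay just below them (1.60 to 2.21). For the glucocorticoid targets given below it lay among them (5.01, against 4.75 to 5.27). Which label is right was not tested.

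The HSP70 co-chaperone Dnajb1 had 44.9, 46.5 and 55.3 CPM in normoxia ABT-263 lungs, against 33.4, 43.5, 36.6, 37 and 45.6 CPM in normoxia vehicle lungs, and 44.3, 103, 122, 114 and 230 CPM in hypoxia ABT-263 lungs, against 34.2, 45.9 and 57.9 CPM in hypoxia vehicle lungs (0.85 ± 0.18, adjusted p = 0.0182). Dnaja1, of the same co-chaperone class, rose by 0.60 ± 0.14, and Chordc1, an HSP90 partner, by 0.44 ± 0.12. The constitutive HSP70 gene Hspa8 stood at 0.42 ± 0.12 (adjusted p = 0.0558) and Hsp90aa1 at 0.51 ± 0.17 (adjusted p = 0.129). The heat shock element was searched on both strands as an exact run of its core repeat, with free positions between the units. Elements with a mismatch or outside the promoter windows were not searched for. An exact match was in 3 of 19 promoters of the list (15.8%) and in 0.529% of all promoters. The 3 were those of Chordc1, Hspe1 and Hsph1, of which Chordc1 alone passed, and no match was found in these windows for Hspa1b, Hspa1a or Dnajb1. None of 26 genes of the unfolded protein response passed (median 0.07). The count of heat shock genes was 1 without the 3 lungs with the highest mitosis means, 8 without the 5 lungs with Mcidas above 5 CPM, 8 without the 3 libraries with conflicting labels and 13 without the first hypoxia ABT-263 replicate alone. It was 2 without normoxia vehicle replicate 1, 3 or 4, normoxia ABT-263 replicate 1 or hypoxia vehicle replicate 1, and 3 without normoxia ABT-263 replicate 6, hypoxia vehicle replicate 2 or hypoxia ABT-263 replicate 4. In single contrasts 4 genes of the list passed in hypoxia, where 0.301% of all genes passed, and none in normoxia, where 0.523% did. No gene passed a test of the difference between oxygen levels.

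No platelet transcript passed as lower. BCL-XL sets how long platelets live, and their RNA comes from megakaryocytes, some of which reside in the lung. Of 26 platelet and megakaryocyte genes 3 rose and none fell, with a median of 0.25 in the average, 0.57 in normoxia and 0.09 in hypoxia. Tubb1, the beta tubulin of platelets (chromosome 2, 174450695 to 174457882), had 17, 25 and 35.1 CPM as the lowest, median and highest in normoxia ABT-263 lungs, against 8.63, 19.7, 10.9, 10.7 and 15.8 CPM in normoxia vehicle lungs. In hypoxia it had 9.16, 7.56, 8.26, 6.44 and 9.58 CPM with ABT-263, against 5.18, 6.21 and 10.7 CPM with vehicle. Lungs overlapped at both oxygen levels (0.60 ± 0.15, adjusted p = 0.0336).

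The serotonin transporter Slc6a4, which platelets share with lung endothelium, rose by 0.52 ± 0.11 and the von Willebrand receptor subunit Gp5 by 0.53 ± 0.14. The platelet chemokine Pf4 stood at 0.04 ± 0.10 and Ppbp at 0.25 ± 0.17, and the integrin Itga2b at 0.30 ± 0.14, none of them passing. Without the 3 libraries with conflicting labels 1 platelet gene passed, and with single libraries left out between 1 (normoxia vehicle replicate 1, 3 or 4, normoxia ABT-263 replicate 1, hypoxia vehicle replicate 1, 3 or 5, or hypoxia ABT-263 replicate 5) and 6 (normoxia vehicle replicate 2) did. No direct count of platelets or megakaryocytes was made here.

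No gene of the drug's own targets passed the test. Of 7 anti-apoptotic BCL-2 family genes tested none passed, and of 10 pro-apoptotic ones none did, with medians of -0.03 and -0.00. Bcl2 had 14.7, 17 and 18.9 CPM as the lowest, median and highest in normoxia ABT-263 lungs, against 15.6, 18.1, 18.7, 20.4 and 18.6 CPM in normoxia vehicle lungs, and 24.1, 18.9, 23.8, 25.5 and 21.1 CPM in hypoxia ABT-263 lungs, against 19.4, 22.2 and 24 CPM in hypoxia vehicle lungs (-0.03 ± 0.06). Bcl2l1, the BCL-XL gene, stood at 0.26 ± 0.08 (adjusted p = 0.0829), Bcl2l2, the BCL-W gene, at 0.02 ± 0.07, and Mcl1, whose protein ABT-263 does not bind well, at 0.13 ± 0.06. Among the activators, Bcl2l11 (BIM) stood at -0.11 ± 0.08 and Bbc3 (PUMA) at 0.00 ± 0.07.

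Cdkn1a rose; its product p21 halts the cell cycle, and the gene answers to p53 and to glucocorticoids (chromosome 17, 29090976 to 29100727). It had 71.6, 86.2 and 101 CPM as the lowest, median and highest in normoxia ABT-263 lungs, against 43.2, 70.6, 39.1, 40.9 and 60.4 CPM in normoxia vehicle lungs, without overlap. In hypoxia it had 68.4, 64.7, 66.1, 105 and 75.7 CPM with ABT-263, against 45.3, 58 and 73.6 CPM with vehicle, with overlap (0.58 ± 0.11, adjusted p = 0.00997). Tnfrsf10b, the death receptor for TRAIL and another p53 target, had 4.35, 4.99 and 6 CPM in normoxia ABT-263 lungs, against 3.49, 3.75, 3.86, 3.87 and 5.3 CPM in normoxia vehicle lungs, and 6.13, 7.3, 5.89, 7.71 and 11.2 CPM in hypoxia ABT-263 lungs, against 3.68, 4.44 and 5.51 CPM in hypoxia vehicle lungs. It overlapped in normoxia and not in hypoxia (0.54 ± 0.11, adjusted p = 0.0108).

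These 2 genes were the rises among 35 p53 targets, of which 1 fell, the peptide transporter Tap1 (-0.35 ± 0.08), and the list's median was 0.04. The largest log2 fold change of the list was that of Ckap2, a spindle protein of dividing cells, which did not pass (1.49 ± 0.41, adjusted p = 0.0625), nor did the stress gene Ddit4 (0.57 ± 0.18, adjusted p = 0.0890). Among well-known p53 targets named as examples, Mdm2, which degrades p53, stood at -0.02 ± 0.05, Ccng1 at 0.03 ± 0.07, Phlda3 at 0.04 ± 0.06 and Bax at 0.04 ± 0.05. Among 22 senescence regulators Cdkn1a and the histone methyltransferase Ezh2 (0.42 ± 0.09), which is higher in dividing cells, rose and the polycomb gene Cbx7 fell (-0.27 ± 0.07), with a median of 0.08. Cdkn2a, the p16 gene and a common mark of senescence, was too low to be tested, at 0.698 ± 0.304 CPM in normoxia ABT-263 lungs and 0.615 ± 0.163 CPM in normoxia vehicle lungs (SD, n = 6 and 5), and at 0.438 ± 0.0824 CPM in hypoxia ABT-263 lungs and 0.386 ± 0.190 CPM in hypoxia vehicle lungs (SD, n = 5 and 6). Of 53 secreted factors of senescence none rose and 1 fell, Ccl5, with a median of 0.06. The cytokine Il6 stood at 0.44 ± 0.38.

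Glucocorticoid targets lay mostly above 0. Of 25 genes 3 rose and none fell, with a median of 0.35 (0.41 in normoxia and 0.37 in hypoxia), and 18 lay above 0 at both oxygen levels. Besides Cdkn1a these were Map3k6, a stress kinase (0.50 ± 0.11, adjusted p = 0.0164), and the transcription factor Klf9 (0.38 ± 0.10, adjusted p = 0.0454). Map3k6 had 14.7, 16.3 and 18.3 CPM in normoxia ABT-263 lungs, against 10, 16.2, 10.6, 8.88 and 9.94 CPM in normoxia vehicle lungs, and 11.7, 16.9, 24.8, 17.1 and 18.1 CPM in hypoxia ABT-263 lungs, against 11.1, 12.5 and 17.1 CPM in hypoxia vehicle lungs. Of the classical targets, named after their values were seen, the receptor chaperone Fkbp5 stood at 0.52 ± 0.14 (adjusted p = 0.0547), Tsc22d3 (GILZ) at 0.62 ± 0.23 (adjusted p = 0.151) and the clock gene Per1 at 0.70 ± 0.25 (adjusted p = 0.145), and none of them passed. Glucocorticoids are known to lower circulating lymphocytes, and whether the higher targets had a part in the lower lymphocyte transcripts was not tested. Without the 3 libraries with conflicting labels 4 genes of the list passed, 7 without hypoxia ABT-263 replicate 1 alone and 5 without normoxia vehicle replicate 2 or normoxia ABT-263 replicate 2. Leaving out any other single library gave 2 to 4 genes, in most cases 2, and limma-voom gave 2. With treatment read from the tag none passed, and the median was 0.28.

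The structural cells of the lung gave no calls, and with 2.54% of all genes passing, short lists would hold few or none. None of 15 general capillary, 17 aerocyte, 27 pan-endothelial, 14 pericyte, 20 smooth muscle, 23 fibroblast, 19 alveolar type 1, 22 alveolar type 2 or 22 club cell genes passed, with list medians between -0.00 and 0.09. These are medians of the average, and single oxygen levels could differ in sign. For club cell genes the median was 0.21 in normoxia and -0.28 in hypoxia, and for smooth muscle genes 0.11 and -0.13. Of genes named after their values were seen, Sftpc stood at 0.00 ± 0.08, Ager at -0.02 ± 0.09, the endothelial gene Pecam1 at 0.11 ± 0.08 and the smooth muscle actin Acta2 at 0.02 ± 0.09. In the same way none of 43 extracellular matrix genes, 36 genes of the TGF-beta, BMP and activin pathways, 34 interferon-stimulated genes, 43 genes of oxidative phosphorylation or 51 ribosomal protein genes passed. The ribosomal protein list had a small median of -0.09 with 44 genes below 0 at both oxygen levels. Of 38 targets of hypoxia-inducible factor and glycolysis genes 1 rose, Pgam1 (0.34 ± 0.09), and of 23 cytochrome P450 genes 2 fell, Cyp4f18 (-0.49 ± 0.10), which neutrophils and B cells are known to express, and Cyp4f13 (-0.27 ± 0.07). In all, 27 of the 46 lists, with 633 genes, had no member that passed, and their medians ran between -0.30, for cardiac muscle genes of the pulmonary veins, and 0.11.

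Normoxia and hypoxia share no library, so the change seen at one oxygen level can be set against the other. In normoxia alone 87 genes passed (0.523%), 18 higher and 69 lower, and in hypoxia alone 50 (0.301%), 19 higher and 31 lower. Of the 69 genes lower in normoxia 64 had a negative log2 fold change in hypoxia, with a median of -0.44 there, and 15 of them passed there too. Of the 18 genes higher in normoxia 11 had a positive one in hypoxia, with a median of 0.11, and none passed there. Starting from hypoxia, 25 of 31 lower genes and 16 of 19 higher genes kept their sign in normoxia. Over all 16638 genes 57.4% had the same sign at both, and the correlation across genes was 0.28, a description only, since genes are not independent.

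The 15 genes that passed at both oxygen levels on their own all fell. Those known from B cells include Ighd, Igkc, Cd79a, Cd79b, Cd22, Fcer2a, Fcrla, Tnfrsf13c, H2-Ob and Cxcr5. Also among the 15 were Ltb, the T and NK cell kinase Txk and the GTPase Gimap3 of lymphocytes (-0.67 ± 0.10). Requiring that every ABT-263 lung lie on 1 side of every vehicle lung at both oxygen levels left 19 lower genes and 3 higher genes (0.114% and 0.018% of those tested).

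**Figure D5:**
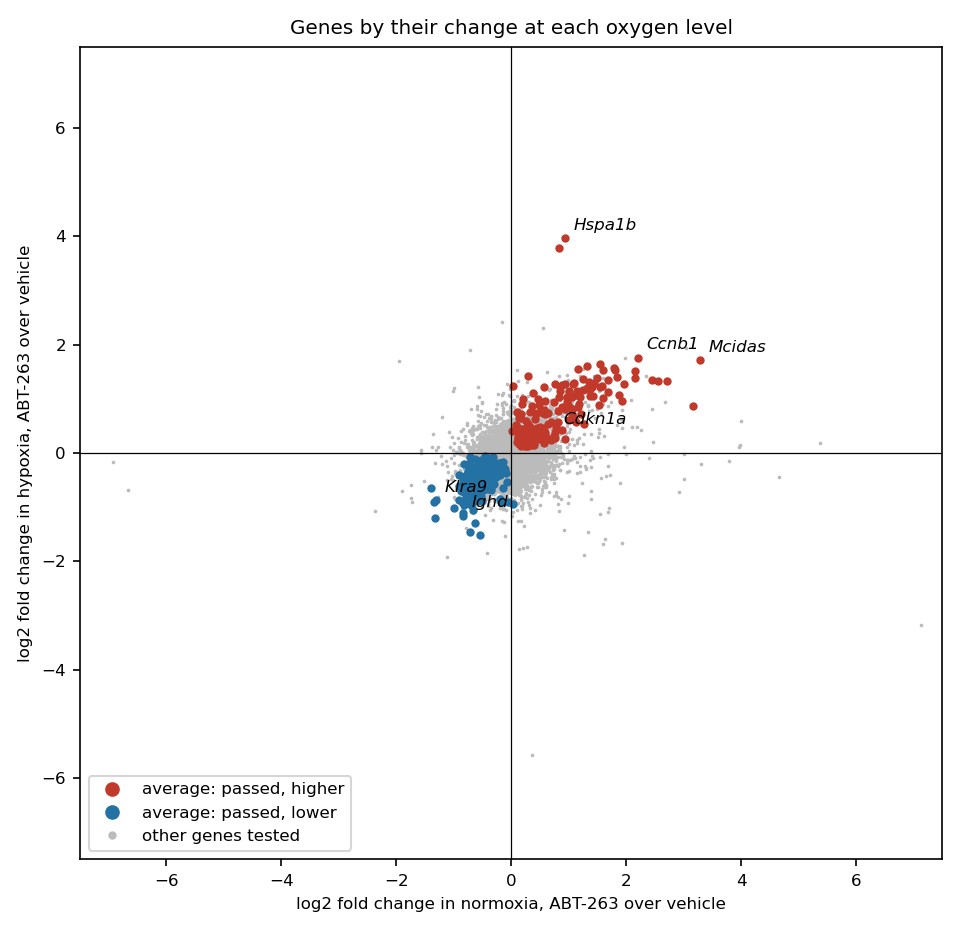
Log2 fold change in normoxia (horizontal axis) and in hypoxia (vertical axis), ABT-263 over vehicle, for the 16638 genes tested, with the 205 genes that rose and the 218 that fell in the average in colour. Genes that fell cluster close together below 0 on both axes, while Mcidas lies far to the right and Hspa1b high up.

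A test of the difference itself, the change in hypoxia minus the change in normoxia, called no gene with edgeR or limma-voom and 17 with DESeq2, and 1548 genes had an unadjusted p under 0.05 with edgeR. The median SE of this difference was 0.16, against 0.08 for the average, so that small differences between the oxygen levels could not have been seen. The smallest p values belonged to Gm3055, a gene model (difference 1.47 ± 0.29, adjusted p = 0.286), the potassium channel Kcnj13 (-0.66 ± 0.14), the carboxylesterase Ces2e (1.12 ± 0.24), the transporter Abcg3 (0.67 ± 0.14) and the pyruvate carboxylase Pcx (-0.61 ± 0.13). Gm3055 had 0.721, 1.03 and 1.29 CPM as the lowest, median and highest in normoxia ABT-263 lungs, against 1.44, 2.25, 1.36, 1.37 and 1.52 CPM in normoxia vehicle lungs, and 1.8, 3.13, 2.05, 1.98 and 2.39 CPM in hypoxia ABT-263 lungs, against 0.987, 1.17 and 1.55 CPM in hypoxia vehicle lungs. It was thus lower with ABT-263 in normoxia and higher in hypoxia, without overlap in either.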

How the data were processed

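Total RNA of whole lung was read as poly(A)-selected, stranded libraries (TruSeq stranded mRNA, NextSeq 500, per the labels' protocols). The authors deposited 1 table of expected counts per gene, made with Trimmomatic, STAR and RSEM on GRCm38, per the submitters' processing notes, with versions not given in the sources used here. Of the values 7.92% were not whole, and all were rounded. Libraries were grouped by title. Genes were filtered with filterByExpr (minimum count 10), scaled by TMM and fitted with edgeR's robust quasi-likelihood F test, with 1 mean per group over all 22 libraries. The contrast was the mean of both ABT-263 minus vehicle differences, with Benjamini-Hochberg adjustment at 0.05 over 16638 genes. SE is the log2 fold change over the square root of F. CPM use TMM-adjusted library sizes, and list means are of log2 CPM with a prior count of 2. List medians are over the genes tested.

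On simulated counts of 16458 genes this test found, for the average, 82.7% of the genes changed 1.5-fold, 97.1% of those changed 2-fold and 100% of those changed 4-fold, and called 8 unchanged genes. These counts were drawn independently for each gene, with the same change in every ABT-263 library. Rises confined to some lungs, and genes that vary together, were not simulated, so these rates do not carry over to them. With 11509032 to 15744212 counts per library, the median SE of the average was 0.08. No 2 libraries of a group were closer than a chi-square of 5.35 per gene, which is above sampling noise. Each was counted as 1 sample, but this measure cannot show that each came from a separate animal. Genes were named by rule: the 15 largest rises and 15 largest falls that passed (at least 2 CPM, no gene models or receptor segments), up to 4 members a list by p, those passing at both oxygen levels, the 5 smallest p of the difference, the drug's targets, Cdkn1a, Cdkn2a and Mki67. Other members given as examples were chosen after their values were seen. The comparison and all gene lists were chosen with earlier results of these data known. Alternatives were DESeq2, limma-voom, other scaling, filters, thresholds and labels, and each library left out. Versions were R 4.3.3, edgeR 4.0.16, limma 3.58.1, DESeq2 1.42.0, Python 3.11.15, numpy 2.4.6, pandas 2.3.3 and matplotlib 3.10.9. Some genes that were tested and counted are not reported here by name.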

Additional observations from a re-analysis of the deposited data

Results flagged for a closer look

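Within groups of 5 or 6 lungs, 148 sets of values of the genes described were searched for a lung far from the others, and chance alone marks about 1 in 20 such sets. In 9 sets a lung stood apart, which is near that rate, so the lungs listed may be those that chance marks. Ighd was at 32 CPM in hypoxia ABT-263 replicate 1, against 20.8 to 23.9 CPM in the other lungs of that group. Cd22 was at 24.3 CPM in normoxia ABT-263 replicate 2, where the others had 17.1 to 18.8 CPM, and at 26.7 CPM in hypoxia vehicle replicate 1, where the others had 15.9 to 19.7 CPM. Klra8 was low, at 1.06 CPM, in hypoxia ABT-263 replicate 4, with the others between 3.13 and 3.61 CPM. Kif11 was at 2.07 CPM in hypoxia vehicle replicate 4, and its companions had 1.18 to 1.45 CPM.

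Hspa1b reached 168 CPM and its copy Hspa1a 163 CPM in hypoxia ABT-263 replicate 5, while the other lungs of the group had 3.32 to 33.2 CPM and 3.53 to 30.8 CPM. Without that lung the log2 fold change of Hspa1b was 1.81 and still passed with edgeR. Tubb1 was at 10.7 CPM in hypoxia vehicle replicate 2, with 5.18 to 6.93 CPM in the others. Cdkn1a was at 105 CPM in hypoxia ABT-263 replicate 4, where the others had 64.7 to 75.7 CPM.

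Gm3055 moved in opposite directions at the 2 oxygen levels, lower with ABT-263 in every normoxia lung and higher in every hypoxia lung. The difference between the 2 changes was 1.47 on the log2 scale and did not pass (edgeR, adjusted p = 0.286).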

How the results depend on the processing

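The average of 423 genes was 791 with DESeq2, 253 with limma-voom, 271 with library totals in place of TMM, 259 with no low-count filter and 26 when a change over 1.2-fold was required. It was 0 when the tag gave the treatment (1916 genes at an unadjusted p under 0.05). The split was 205 higher and 218 lower with TMM, 120 and 151 with library totals, 435 and 356 with DESeq2, and 83 and 170 with limma-voom. Of the 26 genes called over 1.2-fold 1 was higher and 25 were lower. Leaving out 1 library gave 41 to 296 higher and 124 to 353 lower genes. After seeing the data, the 3 lungs with the highest mitosis means were left out, which gave 200 genes, and the 5 with Mcidas above 5 CPM, which gave 242. These lungs were picked by the values themselves, so for mitosis genes and Mcidas the numbers are a description. Leaving out 1 library gave 165 to 649 genes: 207, 173, 186 and 255 without normoxia vehicle replicates 1, 3, 4 and 5, 231 and 214 without normoxia ABT-263 replicates 1 and 6, 215, 235 and 234 without hypoxia vehicle replicates 1, 2 and 6, and 649, 165 and 187 without hypoxia ABT-263 replicates 1, 4 and 5.

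Normoxia alone gave 324 genes with DESeq2, 16 without the 3 libraries with conflicting labels, 0 by tag (1385 unadjusted), 0 over 1.2-fold (715 unadjusted), 176 and 39 with the 3 and the 5 lungs left out, and 1 to 183 with 1 library left out. Hypoxia alone gave 247 with DESeq2, 9 with limma-voom, 77 without the conflicting libraries, 0 by tag (1648 unadjusted), 1 over 1.2-fold, 220 without the 5 lungs, and 3 to 228 with 1 library left out. The difference gave 17 with DESeq2, 1 without the conflicting libraries, 4 and 29 with the 3 and the 5 lungs left out, and 0 to 2 with 1 library left out. The cause of these shifts was not tested.

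Of 7710 values of 227 named genes over all alternatives, 7043 kept their side of the threshold, and 577 kept their direction but no longer passed. Another 89 came to pass. Among genes that had passed 1 value reversed: Mcidas, at -0.06 without the 5 lungs chosen by its own level. Genes that had not passed could change sign and still count as kept, such as Sftpc in 13 of 34 alternatives and Ckm in 3. Of 77 named genes that passed, 76 kept their sign in every alternative. DESeq2 and limma-voom were not run with the tag. No paired analysis was possible because the replicate numbers only follow the order of the accessions. At this depth Cdkn2a, with 2 to 15 counts a library, could not be tested.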
